A study of Mus musculus with 15 samples.

Results

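The 7 small heat-shock proteins expressed in striated muscle (Hspb1, Hspb2, Hspb3, Hspb6, Hspb7, Hspb8 and Cryab) and the co-chaperone Bag3 were chosen by name, as 8 of the 56980 genes of the expression table. RNA was sequenced from muscles and hearts of DBA/2J-mdx mice, a dystrophin-deficient strain used as a model of Duchenne muscular dystrophy, given dasatinib and quercetin (D+Q), a drug pair meant to remove senescent cells, or vehicle. The question put to these 8 genes was whether Hspb7 moved alone or together with its family.

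Every mouse carried the mdx mutation on the DBA/2J background, with no healthy control in the set. The tibialis anterior (TA), a fast muscle of the lower leg, came from 4 vehicle mice (2 males, 2 females) and 4 D+Q mice (4 males), treated 2 times per week for 2 months from 3 to 5 months of age. The heart came from 4 vehicle mice (2 males, 2 females) and 3 D+Q mice (labelled 2 females and 1 male), treated 2 times per week for 4 months from 12 to 16 months of age. Tissue, age and length of treatment changed together between the muscle and heart groups, so their effects cannot be told apart.

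Small heat-shock proteins are chaperones that bind unfolding proteins without using ATP and hold them for refolding or removal. In muscle they sit on the contractile apparatus, the Z-disc and the desmin network, where mechanical load damages proteins. BAG3 links HSPB8 and HSP70 into a complex that delivers damaged Z-disc proteins such as filamin C to autophagy, and mutations of CRYAB, HSPB8 or BAG3 cause inherited muscle disease.

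In the mouse genome build GRCm39 Hspb7 (ENSMUSG00000006221) lies at chr4:141148090-141152625 on the plus strand, Hspb6 (ENSMUSG00000036854) at chr7:30251603-30256218 on the plus strand and Bag3 (ENSMUSG00000030847) at chr7:128125283-128148705 on the plus strand. Hspb1 (ENSMUSG00000004951) lies at chr5:135916760-135918417 on the plus strand, Hspb8 (ENSMUSG00000041548) at chr5:116546409-116561084 on the minus strand and Hspb3 (ENSMUSG00000051456) at chr13:113799432-113800212 on the minus strand. Hspb2 (ENSMUSG00000038086, chr9:50662378-50663858, minus strand) lies within the annotated span of Cryab (ENSMUSG00000032060, chr9:50651859-50668567, plus strand). The strand setting of the quantification was not given in the sources used here, so reads of Hspb2 and Cryab could have been split between them.

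The promoters are shown because Hspb1, Hspb8, Cryab and Bag3 were high with some heat-inducible genes in the first TA D+Q library. Heat-shock factor 1 binds inverted repeats of a short unit, and the letters GAANNTTC and TTCNNGAA (each the same on both strands) were searched in RefSeq promoters of 300 bases (250 before to 50 after the start, build GRCm38.p6). Entries were found for 6 of the 8 genes, 7 promoters in all, and none was used for Cryab or Hspb2. Of all 32851 promoters, 7.86% held GAANNTTC, 8.52% held TTCNNGAA and 15.1% held either. GAANNTTC was present in promoters of 5 genes (Hspb1, Hspb3, Hspb6, Hspb8 and Bag3), and TTCNNGAA in none of the 7 promoters. In Hspb1 it occurred 117 and 97 bases before the start, in Hspb8 2 bases after it, in Bag3 42 bases after it, in Hspb3 224 bases before it and in the second of the Hspb6 promoters 120 bases before it. The Hspb7 promoter held neither. A match is a run of letters, not a bound site. Hspb3 and Hspb6 held a match but stood at 1.06 and 0.916 times the median of the other 7 TA libraries in the first TA D+Q library. Whether a match bears on the levels was not tested. The stretches below give 200 of the 250 bases before the start, ending about 20 bases short of it, for Hspb1 and Hspb7, which differ in this respect, and 30 bases around each match in the other genes, with the matches in capitals.
Hspb1 (chr5:135887699-135887898, plus strand): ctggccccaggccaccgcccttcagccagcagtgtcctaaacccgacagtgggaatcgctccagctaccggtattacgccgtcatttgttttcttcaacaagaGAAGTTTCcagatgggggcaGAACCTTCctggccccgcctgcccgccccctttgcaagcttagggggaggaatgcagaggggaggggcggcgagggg
Hspb7 (chr4:141420559-141420758, plus strand): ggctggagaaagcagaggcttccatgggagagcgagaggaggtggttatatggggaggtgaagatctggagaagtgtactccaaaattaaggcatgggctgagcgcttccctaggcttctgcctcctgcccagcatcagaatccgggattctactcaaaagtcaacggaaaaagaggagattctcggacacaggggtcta
Hspb8 (chr5:116422844-116422873, minus strand): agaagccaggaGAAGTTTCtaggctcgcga
Bag3 (chr7:128523603-128523632, plus strand): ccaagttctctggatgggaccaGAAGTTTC
Hspb6 (chr7:30553170-30553199, plus strand): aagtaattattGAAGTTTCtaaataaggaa
Hspb3 (chr13:113663882-113663911, minus strand): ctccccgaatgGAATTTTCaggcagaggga

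Levels are given as TPM, a length-corrected share of the transcripts of each library that can be compared between genes. The read depth behind them is unknown, so no counting error could be attached, and between 21830 and 25378 genes were above 0 per library. The TA libraries had the fast-fibre gene Myh4 between 4190.3 and 5855 TPM, and the heart libraries had the cardiac gene Pln between 2696 and 3691 TPM, as the tissue labels state. The third D+Q heart, labelled male, had 47.2 TPM of the female-specific transcript Xist, and its Y-linked genes were at or near 0. By these genes all D+Q hearts were female, at 47.2 to 59.5 TPM of Xist, while the vehicle hearts held both sexes. Sex was thus unbalanced with treatment in the heart, and the main fits used the labelled sex. Changes were tested with limma on log2(TPM + 0.5) over all genes that reached 0.5 TPM in 3 or more libraries, and a gene was called at a Benjamini-Hochberg adjusted p under 0.05 with an absolute log2 fold change above 0.5. All 8 genes passed the filter in every comparison.

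The levels spanned a wide range (plot of TPM by library). In vehicle hearts the mean fell in the order Cryab, Hspb7, Hspb6, Hspb1, Hspb8, Bag3, Hspb2 and Hspb3, from 963 to 3.72 TPM, and only the neighbours Hspb7 and Hspb6 overlapped in range. In D+Q hearts the order was the same and no neighbours overlapped. In vehicle TA Hspb6 led at 1142 TPM, followed by Cryab at 904 TPM, while Hspb7 and Hspb1 overlapped at 269.9 and 267 TPM. In D+Q TA each neighbour overlapped the next from Hspb6 down to Bag3. Together the 7 small heat-shock proteins made up 0.279% of the vehicle TA libraries and 0.232% of the vehicle heart libraries. In D+Q hearts the summed level was 2946 ± 55.0 TPM (SD, n = 3) against 2322 ± 184 TPM (SD, n = 4) in vehicle hearts. Without Hspb7 the sum of the other 6 was 1940.4 to 1986 TPM in D+Q hearts and 1591 to 1896 TPM in vehicle hearts, so these groups did not overlap either. Cryab, at a mean of 1111 TPM in D+Q hearts, made up most of this sum, and its own groups did not overlap. Those of Hspb1, Hspb2, Hspb6 and Hspb8 did. How often such a sum separates the groups over other genes was not computed. Hspb7 supplied 33.4% ± 1.39 (SD, n = 3) of the sum of all 7 in D+Q hearts against 24.5% ± 2.79 (SD, n = 4) in vehicle hearts.

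**Figure D1:**
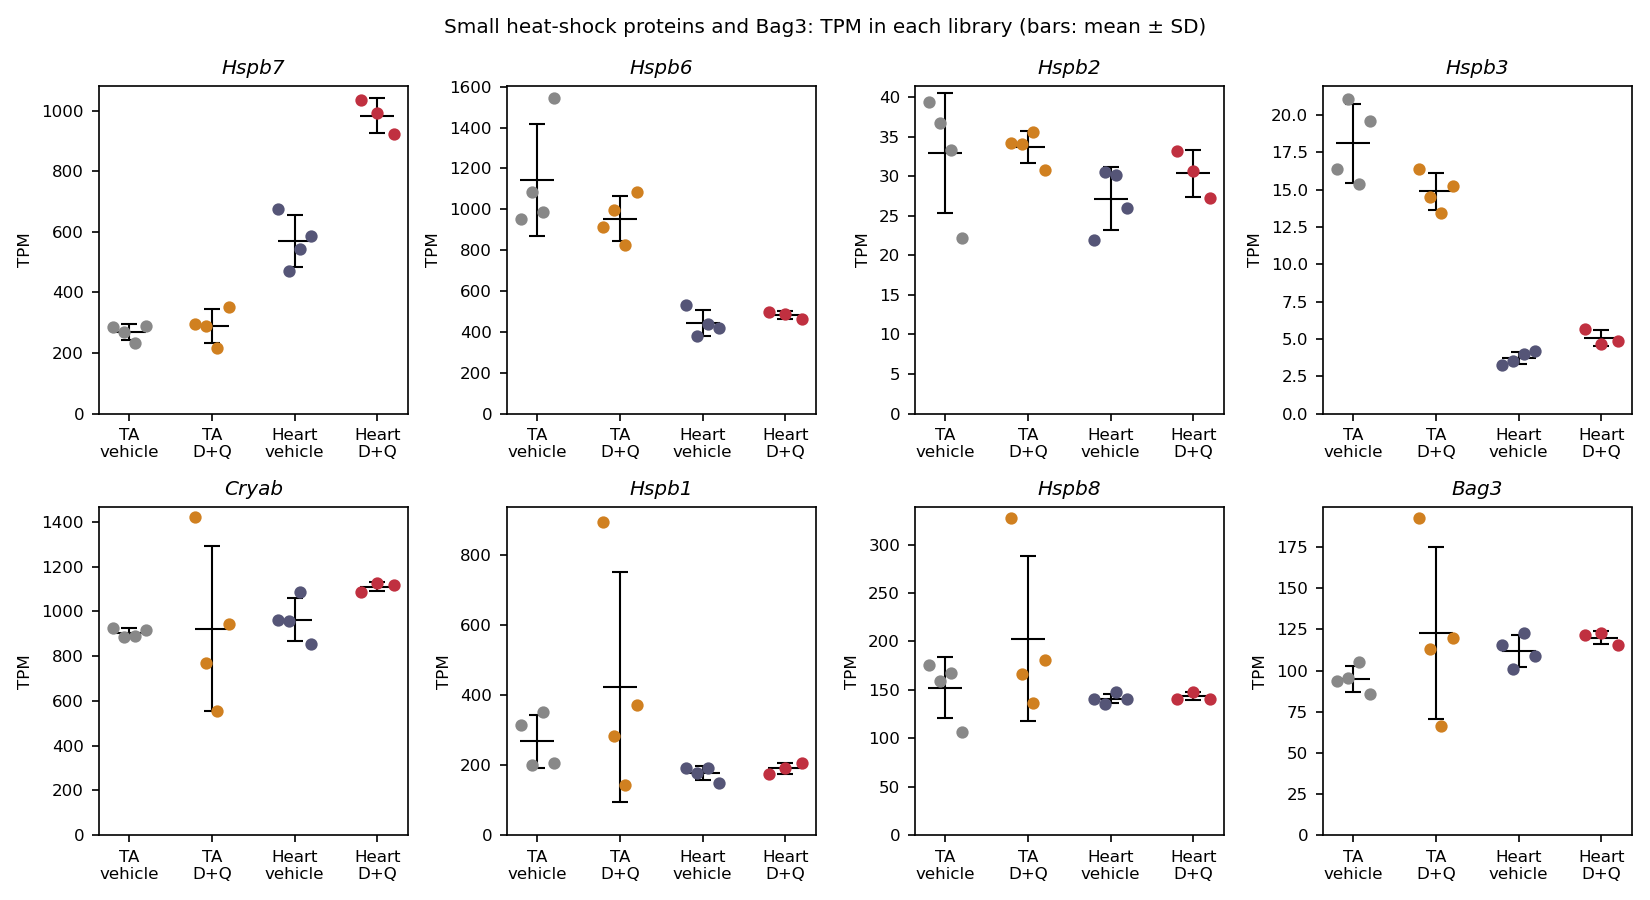
TPM (vertical axes, from 0) of the 8 genes in each library, grouped as TA vehicle, TA D+Q, heart vehicle and heart D+Q, with bars for mean ± SD. Hspb7 in the 3 D+Q hearts (923 to 1035 TPM) lay above all vehicle hearts (470.2 to 675 TPM), and the first TA D+Q library was the highest for Hspb1, Hspb8, Cryab and Bag3.

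Hspb7, a cardiac and skeletal muscle small heat-shock protein that binds filamin C and restrains thin-filament length, was the member that rose in the heart after D+Q. It stood at 675, 470.2, 543 and 588 TPM in the 4 vehicle hearts and at 1035, 995 and 923 TPM in the 3 D+Q hearts. Every D+Q heart was above every vehicle heart. The log2 fold change was 0.82 (SE 0.11, 95% interval 0.56 to 1.09; limma adjusted p = 0.0445), a 1.77-fold higher level on the log2(TPM + 0.5) scale, and 99.4% of the 16132 genes tested had a lower fold change. In tissue RNA more cells of a type and more RNA per cell cannot be told apart.

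No other member was called in the heart, which makes 1 of 8 against 0.316% of all genes tested (51 genes), and 1 of 8 higher against 0.105% (17 genes). The study had already listed Hspb7 among its upregulated heart genes, and the members were chosen with this known. These shares are therefore not a test of the set. All 8 log2 fold changes were positive, with a median of 0.13 against -0.0025 over all genes. In 3 members (Hspb7, Hspb3 and Cryab) every D+Q heart was above every vehicle heart, a pattern that 9.63% of all genes tested showed.

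Hspb3, a muscle-restricted small heat-shock protein that pairs with HSPB2, was the lowest member and had 3.23, 3.52, 3.97 and 4.17 TPM in the vehicle hearts. The D+Q hearts had 5.69, 4.67 and 4.83 TPM of Hspb3. Its groups did not overlap, but its log2 fold change of 0.39 (95% interval 0.10 to 0.68) did not pass (limma adjusted p = 0.176). Cryab, which encodes alphaB-crystallin, a chaperone of desmin, had 959, 954, 1085 and 853 TPM in vehicle hearts and 1087, 1126 and 1119 TPM in D+Q hearts. The groups were separated by a small gap, and the log2 fold change of 0.20 (95% interval 0.01 to 0.38) did not pass (limma adjusted p = 0.261).

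The remaining members overlapped between the heart groups. Hspb6, a phosphoprotein that acts in cardiac contraction and survival, had 529, 380.4, 437 and 419 TPM in vehicle hearts and 499, 487 and 463 TPM in D+Q hearts. The first vehicle heart was thus the highest of all 7 for Hspb6. Hspb1, the widely expressed stress-inducible HSP25, ranged from 149 to 192 TPM in vehicle and from 175 to 205 TPM in D+Q hearts. Hspb8, the partner of BAG3, ranged from 136 to 148 TPM in vehicle and from 141 to 148 TPM in D+Q hearts. Bag3 ranged from 101 to 123 TPM and from 116 to 123 TPM. Hspb2, which binds the myotonic dystrophy kinase, ranged from 22.0 to 30.6 TPM and from 27.2 to 33.2 TPM. The upper 95% limits of these 5 log2 fold changes lay between 0.14 for Hspb8 and 0.40 for Hspb6, all under the lower limit for Hspb7 of 0.56, and their limma adjusted p-values were between 0.485 and 0.886.

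**Figure D2:**
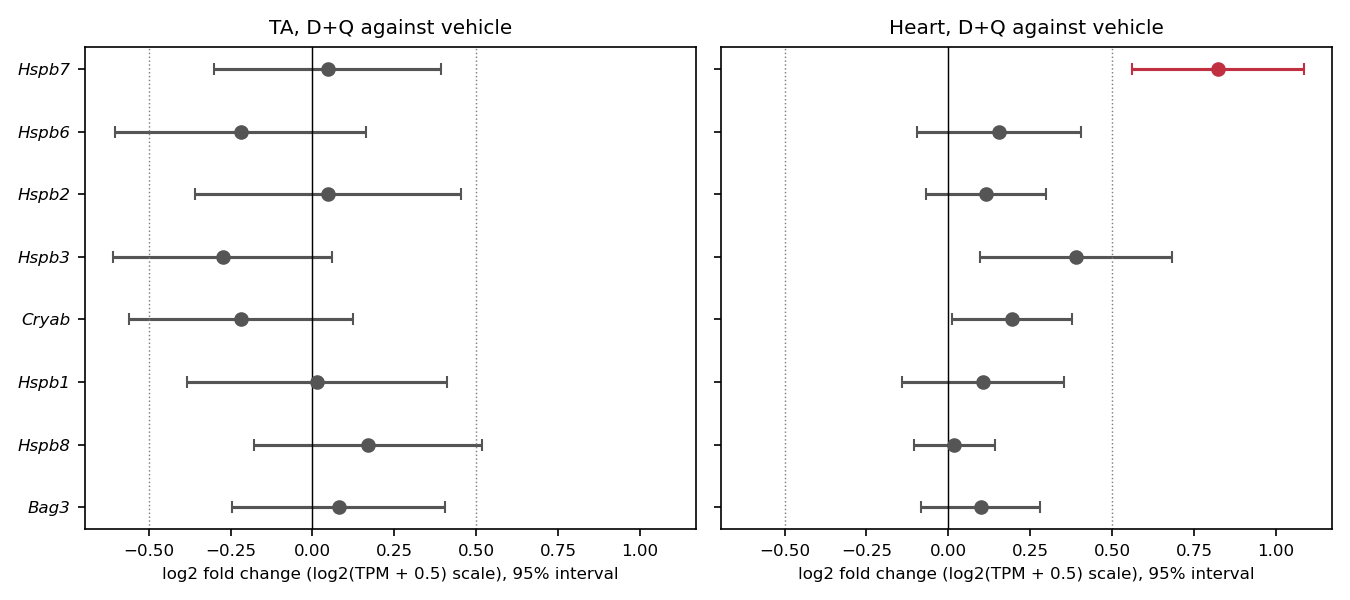
Log2 fold changes of D+Q against vehicle with 95% intervals (horizontal axes) for the 8 genes in the TA (left) and the heart (right), with dotted lines at ±0.5 and called genes in red. Hspb7 in the heart, at 0.82, is the only called gene, and all TA intervals cross 0.

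The ratio of Hspb7 to each other member, taken within a library, does not depend on how libraries were scaled. In the heart this ratio was higher after D+Q by a factor of 1.28 against Hspb3 up to 1.72 against Hspb8. For 6 of the 7 members the ratio in every D+Q heart was above that in every vehicle heart, the exception being Hspb3. All 7 ratios hold Hspb7, whose own heart groups did not overlap, so they are not separate results for each member. How often such a ratio separates the groups over all genes was not computed. Against Cryab the log2 ratio lay between -0.28 and -0.07 in D+Q hearts and between -1.02 and -0.51 in vehicle hearts, so that Hspb7 came close to the level of the most abundant member. Against Hspb6 it lay between 0.99 and 1.05 in D+Q hearts and between 0.31 and 0.49 in vehicle hearts. In the TA none of the 7 ratios separated the groups, with factors from 0.808 to 1.28.

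**Figure D3:**
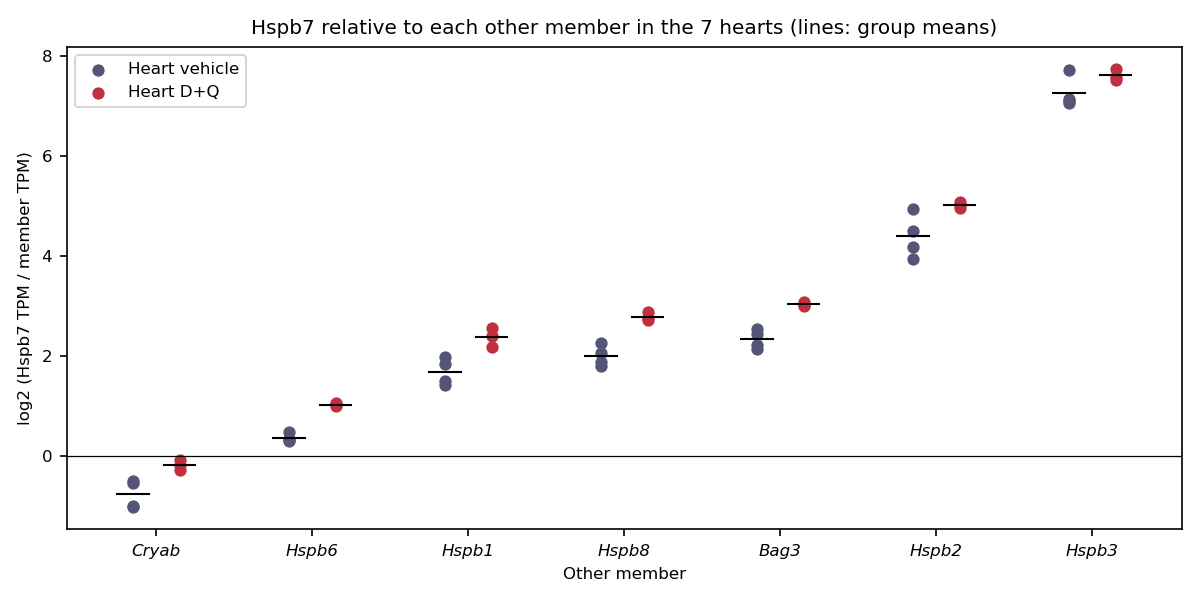
Log2 ratio of Hspb7 TPM to the TPM of each other member (vertical axis) in the 4 vehicle and 3 D+Q hearts, with lines at the group means. The D+Q hearts lie above all vehicle hearts for 6 of the 7 members, and for Hspb3 the groups overlap, at 7.51 to 7.74 against 7.06 to 7.71.

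The call of Hspb7 rested on all 7 hearts. Leaving out any single heart kept the log2 fold change between 0.73 and 1.01, but the limma adjusted p then lay between 0.0559 and 0.137. Genes of other cell populations moved with the same contrast. All 7 atrial cardiomyocyte genes had negative log2 fold changes in D+Q hearts and 4 of them were called (Myl7, Myl4, Sln and Dkk3), with a summed level of 887 to 4323 TPM in vehicle and 396 to 447 TPM in D+Q hearts. Myl7, the atrial light chain, fell from 94.1, 730.1, 541 and 283 TPM to 3.99, 4.54 and 3.46 TPM. Within the vehicle hearts alone, Hspb7 was higher where Myl7 was lower, in the order 675, 588, 543 and 470.2 TPM of Hspb7 at 94.1, 283, 541 and 730.1 TPM of Myl7. Myl4 and Sln ran in the Myl7 order, while Nppa and Bmp10 did not. Bmp10 was lowest, at 0.106 TPM, in the vehicle heart with the least Hspb7. The mean log2 level of all the atrial genes was highest in the third vehicle heart (6.63), not in that one (6.46). With the mean log2 level of the atrial genes in the place of sex in the fit, the log2 fold change of Hspb7 was 0.10 (SE 0.28; limma adjusted p = 0.938), and that score correlated with treatment at r = -0.95 over the 7 hearts, so atrial content and treatment cannot be told apart in this fit.

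**Figure D4:**
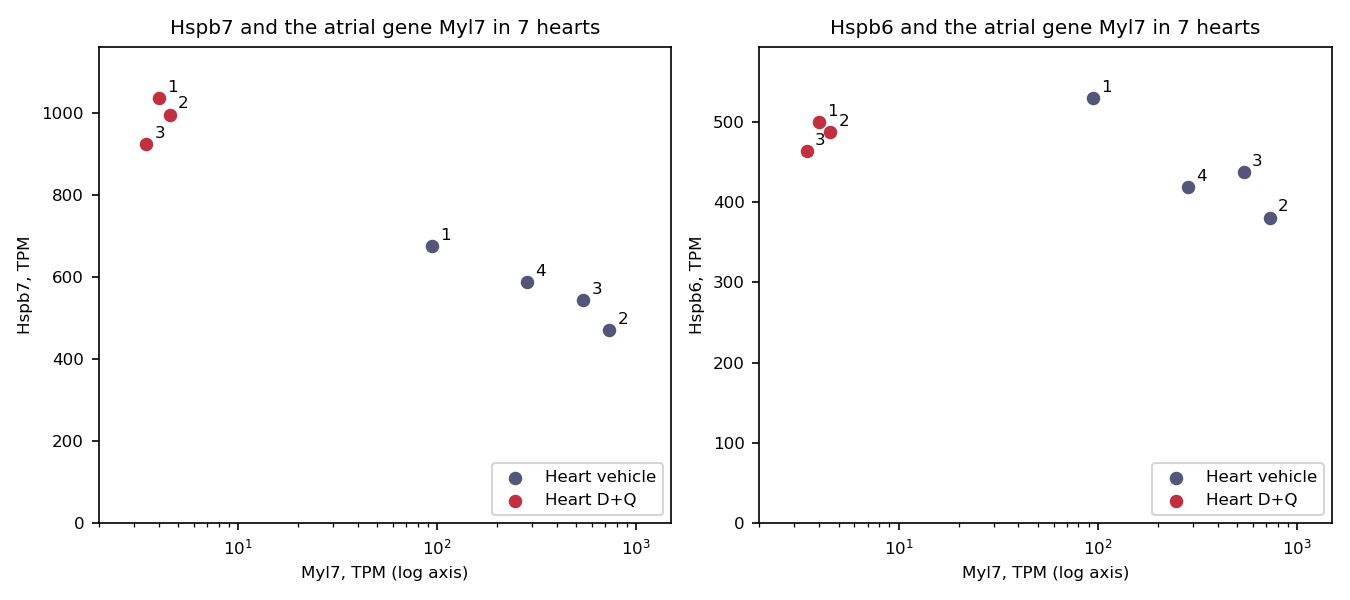
Hspb7 (left) and Hspb6 (right) TPM against TPM of the atrial gene Myl7 (log axis) in the 4 vehicle and 3 D+Q hearts, numbered by replicate. The D+Q hearts sit at 3.46 to 4.54 TPM of Myl7 and 923 to 1035 TPM of Hspb7, and in the vehicle hearts Hspb7 runs from 675 TPM at the lowest Myl7 to 470.2 TPM at the highest.

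Other markers moved as well. The 7 ventricular genes had positive log2 fold changes of 0.24 to 0.36 in D+Q hearts, none called, with a summed level of 24089.8 to 26625 TPM in vehicle and 30301 to 32009 TPM in D+Q hearts. The 5 red cell genes summed to 346 to 1231 TPM in vehicle and 26.8 to 121.5 TPM in D+Q hearts, with none called. Of the 9 circadian clock genes tested, 1 was called higher and 6 lower, with Bmal1 at 1.35 to 3.15 TPM in vehicle and 8.55 to 10.2 TPM in D+Q hearts. The 6 fibroblast genes had negative log2 fold changes (median -0.34, none called), with a summed level of 594 to 839 TPM in vehicle and 477 to 559 TPM in D+Q hearts. The 5 smooth muscle genes had a median of -0.53, with 1 positive and none called, and summed to 391 to 581 TPM in vehicle and 467 to 506 TPM in D+Q hearts. The part of the ventricular, red cell, fibroblast, smooth muscle and clock genes in the Hspb7 result was not tested.

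The genes around the BAG3 pathway did not pass the test in the heart. None of the 5 other BAG genes, 14 chaperone-assisted autophagy partners, 12 filament and Z-disc clients, 14 heat-shock factors and targets and 5 p38 and MK2 kinases tested was called, in either direction. The clients had a median log2 fold change of 0.18 and the autophagy partners of 0.06, against -0.0025 over all genes. Among the clients, Actn2 (alpha-actinin of the Z-disc) had 0.27 (limma adjusted p = 0.147), Ldb3 (a Z-disc adaptor) 0.34 (adjusted p = 0.112) and Vim (the intermediate filament of non-muscle cells) -0.50 (adjusted p = 0.109). Mapkapk2, the kinase MK2 that phosphorylates HSPB1, had 0.39 (adjusted p = 0.0848), followed in its list by Mapk12 at -0.19 and Mapk14 at 0.08. Of the autophagy partners, Stub1 (the ubiquitin ligase CHIP) had 0.15, Map1lc3b (an autophagosome protein) 0.19 and Synpo 0.17. Of the heat-shock genes, Hsf2 had 0.24, Hspd1 0.24 and Hspa1b -0.89, and of the BAG genes Bag1 had 0.22, Bag4 -0.16 and Bag5 0.11, all with limma adjusted p of 0.166 or above. Other small heat-shock protein genes did not pass the filter on low values in either tissue.

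In the TA no member was called, 0 of 8 against 0% of the 16298 genes tested, with all limma adjusted p-values at 0.999. At an unadjusted p under 0.05 there were 0 members and 488 genes. The study fitted counts with DESeq2 and did report up- and downregulated genes in the TA, none of which was called here. It also reported more changed genes in the heart than the 51 called here. A member not called here is therefore not shown to be unchanged. Hspb7 had 287, 271, 234 and 288 TPM in vehicle TA and 296, 291, 216 and 353 TPM after D+Q, and its groups overlapped, with a log2 fold change of 0.05 (95% interval -0.30 to 0.39). The 8 log2 fold changes, with 1 surrogate variable in the fit for variation shared by many genes, ran from -0.27 for Hspb3 to 0.17 for Hspb8, with 5 positive. The surrogate variable was not forced to be independent of treatment, so it can take up part of a treatment difference. No member had every D+Q library below every vehicle library, which 1.25% of all genes tested showed. The surrogate variable was highest in the first D+Q library (0.70), and leaving it out moved the value for Hspb1 from 0.01 to 0.39 (limma adjusted p = 0.999). All 4 D+Q muscles came from males, and with males only no member was called either. As the full TA fit called no gene at all, this cannot show whether sex mattered.

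Among the members, what stood out in the TA was the spread of 4 of them over the D+Q libraries. Hspb1 had 894, 281, 142 and 370.5 TPM in the 4 D+Q muscles, against 313, 199.9, 349.6 and 206 TPM in vehicle muscles. Bag3 had 193, 113, 66.3 and 120.1 TPM after D+Q, against 93.6, 95.4, 105 and 86.1 TPM. In both genes the first D+Q muscle was the highest of all 8 TA libraries and the third D+Q muscle the lowest. Hspb8 had 327, 166, 136 and 181 TPM after D+Q, against 176, 159, 167 and 107 TPM. Cryab had 1420.5, 769.9, 553 and 945 TPM after D+Q, against 927, 883, 889.8 and 914 TPM. Here too the first D+Q muscle was the highest of the 8. Its level was 3.18 times the median of the other 7 TA libraries for Hspb1, 2.02 times for Bag3, 1.97 times for Hspb8 and 1.60 times for Cryab.

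The other 4 members did not share this. The same muscle had 1.03 times the median of the others for Hspb7, 1.00 times for Hspb2, 1.06 times for Hspb3 and 0.916 times for Hspb6. Some heat-inducible genes were far above the other muscles in it, but not all. Hspa1a, an inducible HSP70, had 181 TPM there against 1.45 to 10.6 TPM in the other 7, and Hspa1b had 166 TPM. The co-chaperone Dnajb1 had 55.9 TPM, 10.6 times the median of the others, and Hsp90aa1 had 3.59 times its median. Hsph1, also a heat-shock target, had 34.5 TPM there, 1.22 times its median, against up to 37.7 TPM in the other 7. The third D+Q muscle had the lowest Hspa1a at 1.45 TPM, and it was the lowest of the 8 TA libraries for 6 members, Hspb1, Bag3 and Cryab as well as Hspb7, Hspb6 and Hspb3, so its low values were not limited to Hspb1, Hspb8, Cryab and Bag3. The first D+Q muscle also had the highest Ccl2 and Il33, at 143 and 66.2 TPM, and the part of these inflammatory genes in the result was not tested. That muscle was highest for Flnc (666 TPM) and Vim (405 TPM) as well, and lowest for Myh4 (4190 TPM) and Ldb3 (896 TPM). The share of all genes with their highest TA level in that library was not computed.

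**Figure D5:**
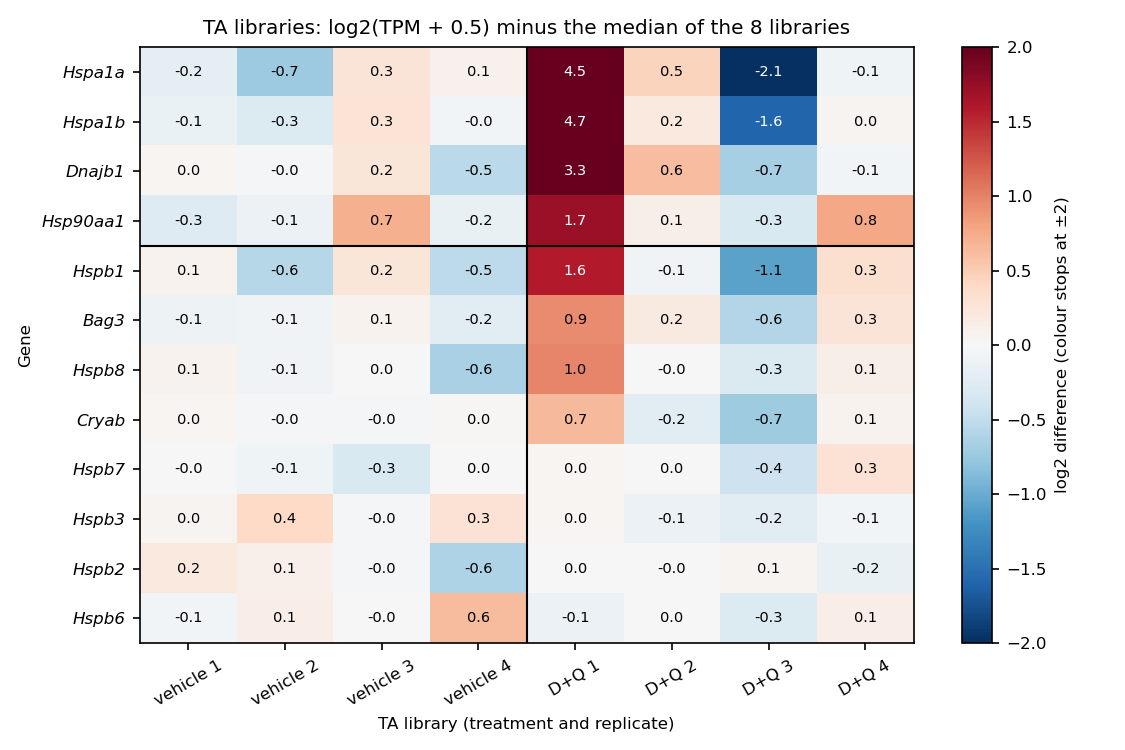
Log2(TPM + 0.5) in the 8 TA libraries minus the median of the 8 for each gene (colours stop at ±2), with heat-inducible genes above the horizontal line and the 8 members under it. The first D+Q library is high for Hspa1a, Hspa1b, Dnajb1 and Hsp90aa1 and for Hspb1, Bag3, Hspb8 and Cryab, while Hspb7, Hspb3, Hspb2 and Hspb6 lie near 0 in it.

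Within groups, Hspb1, Hspb8, Cryab and Bag3 varied together over all libraries, less so without the muscle described above. Over the deviations of the 15 libraries from their group means on the log2 scale, the 6 pairs among Hspb1, Hspb8, Cryab and Bag3 had r between 0.80 and 0.94. The 16 pairs of these 4 with the other 4 members had a median r of 0.15, from -0.35 to 0.49. Without the first TA D+Q library the 6 pairs had r between 0.43 and 0.85 and the 16 pairs between -0.47 and 0.64, so that the ranges overlapped. They overlapped in the 7 hearts too, at 0.25 to 0.84 for the 6 pairs and -0.64 to 0.63 for the 16 pairs, and without the 3 TA libraries high in Ccl2 and Il33, at 0.33 to 0.84 and -0.59 to 0.75. These are descriptions over libraries that share their tissue handling and scaling, and the 4 genes were grouped after their values were seen.

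Over the 15 libraries Hspb7 had its highest r with Hspb6 among the members, at 0.66, and 0.92 over the 7 hearts. Over the 8 TA libraries it had r = 0.57 with Hspb6 and 0.61 with Cryab. Over the 15 libraries it had r = 0.49 with Bag3, with Cryab 0.46, with Hspb1 0.35, with Hspb3 0.31 and with Hspb8 0.21. Hspb2 ran the other way, at r = -0.40 with Hspb7 and -0.84 with Hspb6. The fourth vehicle TA library, with the lowest Hspb2 of the TA libraries (22.2 TPM) and the highest Hspb6 (1545 TPM), contributed to that value, which was -0.61 without it. Of 8934 genes with a mean of at least 5 TPM, those most like Hspb7 in these deviations were Actn2 (r = 0.84), Gatb (0.81), Mphosph8 (0.78), Bbip1 (0.78) and Rad54l2 (0.77). They were picked as the highest of 8934 values over 15 libraries, and no chance level was computed for them.

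Between tissues, 3 members differed in vehicle mice, 1 higher and 2 lower in the heart. This compares with 36.7% of the 17868 genes tested that were called, 14.2% higher and 22.5% lower. Hspb7 was 2.10 times higher in the heart (log2 fold change 1.07, SE 0.14; limma adjusted p = 3.09e-05). Hspb6 had a log2 fold change of -1.35 (SE 0.15; limma adjusted p = 3.69e-06) and Hspb3 of -2.13 (SE 0.12; limma adjusted p = 2.47e-09). None of these 3 genes overlapped between TA and heart libraries. Hspb1, Hspb2, Hspb8, Cryab and Bag3 overlapped and did not pass, with limma adjusted p between 0.226 and 0.781. In a fit of the 8 vehicle libraries only, Hspb1 was called lower in the heart as well (-0.56, limma adjusted p = 0.025).

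In D+Q mice the same 3 members were called in the same directions, against 34.7% of all genes, 13.3% higher and 21.4% lower. Hspb7 had a log2 fold change of 1.82 (limma adjusted p = 1.65e-06), Hspb6 of -1.04 (adjusted p = 0.000367) and Hspb3 of -1.57 (adjusted p = 8.38e-07). The median over all genes in these tissue comparisons was -0.16 in both, and rescaling by median of ratios moved it by 0.19 and 0.17 without changing the direction of these 3 members. Without the first TA D+Q library Cryab was called higher in the D+Q heart as well, with a log2 fold change of 0.55 (limma adjusted p = 0.023), and without the third Hspb1 was called lower, with -1.09 (adjusted p = 0.0308).

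Pathway genes also differed between the tissue groups, as did many genes of any kind. In vehicle mice 36.7% of all genes tested were called, 14.2% higher and 22.5% lower in the heart. The autophagy partners and BAG genes were called at about that share, and no list was tested as a set. In vehicle mice 10 of 12 filament and Z-disc clients were called lower in the heart and 1 higher, the higher being Lmod2 (a cardiac thin-filament protein, log2 fold change 1.15). Nebulin (Neb, -8.93) and myotilin (Myot, -6.05), skeletal thin-filament and Z-disc proteins, had the most negative values, and filamin C (Flnc), a client of BAG3, had -1.88. The other lower clients were Fhl1 (-3.83), Klhl41 (-3.31), Ldb3 (-1.35), Des (-1.18), Ttn (-0.92), Lmod3 (-0.79) and Vim (-0.72). Of the 14 autophagy partners Gabarapl1 was higher (1.02), while Synpo2 (a BAG3 partner at the Z-disc, -2.72), Tfeb (a regulator of lysosome genes, -1.08), Synpo (-0.78) and Sqstm1 (the autophagy receptor p62, -0.51) were lower. Of the 14 heat-shock factors and targets Hspa4l was higher (1.42) and 7 were lower, namely the factors Hsf2 (-1.42), Hsf4 (-0.84) and Hsf1 (-0.66) and the targets Hsph1 (-0.96), Chordc1 (-0.86), Serpinh1 (-0.74) and Hsp90ab1 (-0.53). Of the 5 kinases Mapk12 (p38 gamma of skeletal muscle, -2.47), Mapk14 (-1.21) and Mapkapk3 (-1.11) were lower, and of the 5 BAG genes Bag2 was higher (0.78) and Bag1 lower (-0.52).

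In D+Q mice 34.7% of all genes tested were called, 13.3% higher and 21.4% lower in the heart. Of the clients 10 were again called lower, from Neb (-8.54) to Lmod3 (-0.71). These were the 10 that were lower in vehicle mice, whereas Lmod2 was not called. Of the autophagy partners 5 were lower, the 4 named for vehicle mice and Hspa8 (the constitutive HSP70, -0.67), with Gabarapl1 higher (0.94). Of the heat-shock genes Hspa4l was higher (1.52) and 5 were lower, Hsf2 (-1.27), Hsf4 (-0.88), Hsph1 (-1.04), Chordc1 (-0.84) and Hspa1b (-3.14), the last of which was at 166 TPM in the first TA D+Q library. The kinases Mapk12 (-2.57), Mapk14 (-1.20) and Mapkapk3 (-1.01) were lower and Bag2 higher (0.81).

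The D+Q effect of Hspb7 in the heart minus that in the TA was 0.75 on the log2 scale (SE 0.23, 95% interval 0.26 to 1.24), but this difference did not pass the test over all genes (limma adjusted p = 0.77). For Hspb3 the difference was 0.56 (limma adjusted p = 0.835). None of the 8 members was called, against 0.0616% of the 17868 genes tested (11 genes), and 2 of the 8 members and 754 of all genes had an unadjusted p under 0.05.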

How the data were processed

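RNA from snap-frozen TA muscles and hearts was sequenced in 15 libraries, taken here as 1 mouse each. The labels do not name the animals, so p-values measure the spread between libraries. Per the labels and the study's methods, the authors trimmed reads with Trim Galore 0.6.10, quantified them with Salmon 1.10.3 against GRCm39 and deposited a table of TPM, in which every library sums to 1000000. The annotation release was not given in the sources used here. Counts were not used here, so limma 3.58.1 (R 4.3.3) was fitted to log2(TPM + 0.5) with a mean-variance trend, and p-values were adjusted over all genes tested by Benjamini-Hochberg. The TA fit held 1 surrogate variable from 5 rounds of reweighting. The heart fit held the labelled sex. Tissue comparisons and the difference of effects came from 1 fit of all 15 libraries with sex. The TA and heart D+Q fits were run on simulated data with independent noise in each gene. Those data held no shared library, sex or atrial differences, so they cannot show how the fits handle these. All fits were repeated with other pseudocounts, filters, scalings and covariates and without each library in turn. Gene positions were matched to GENCODE M39 by identifier, for 56236 of 56980 genes. Pathway and marker genes were named by rule: those called in a comparison, otherwise the 3 with the smallest p in the heart. The members and lists were chosen with earlier results of these data known. Replicate numbers were taken to belong to different mice. The precision is limited by the 3 or 4 mice per group.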

Additional observations from a re-analysis of the deposited data

Results flagged for a closer look

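Among the 36 gene and group combinations of 4 libraries examined (the 8 members and 4 heat-inducible genes), a library stood apart from the others of its group in 4, and none of these was a member. Chance alone flags about 1 in 20 groups. In the first TA D+Q library Hspa1a had 181 TPM against 1.45 to 10.6 TPM in the other 3 D+Q muscles, Hspa1b had 166 TPM against 1.60 to 6.77 TPM and Dnajb1 had 55.9 TPM against 3.23 to 8.56 TPM. In the third TA vehicle library Hsp90aa1 had 101 TPM against 51.1 to 56.5 TPM. That library was the highest of its group for Hspb1 and Bag3 but not for Cryab or Hspb8.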

How the results depend on the processing

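In the heart, the count of called members fell from 1 to 0 with no filter on low values, median-of-ratios rescaling, limma without the trend, the atrial score and the replicate block, and was 0 to 0 over the libraries left out in turn. The limma adjusted p of Hspb7 was 0.164, 0.0677, 0.124, 0.938 and 0.0799 in these fits, and its log2 fold change stayed at 0.80 or above except with the atrial score. The replicate block gave 0.82. Same-numbered mice did not deviate together (mean r 0.0035 in hearts and -0.12 in TA). No pairing by number was seen, though so few pairs cannot exclude one. The block changed no other count. Hspb7 stayed called with pseudocounts of 0.1 and 1, a filter of 1 TPM, no covariate and sex read from expression (0.96, adjusted p = 0.0181).

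Signs turned only in values that were not called. In the heart, Hspb8 had -0.0026 with median of ratios, Hspb2 -0.0046 with sex read from expression, and Hspb1 -0.043 and Hspb6 -0.52 with the atrial score. Leaving out single libraries gave -0.014 to 0.047 for Hspb8 and -0.014 to 0.16 for Hspb1. In the TA, Hspb2 had -0.11 with labelled sex or males only, and Hspb1 -0.23, Hspb7 -0.17 and Bag3 -0.081 without the 3 libraries high in Ccl2 and Il33. In that muscle, libraries left out in turn gave -0.091 to 1.05 for Hspb1, -0.10 to 0.14 for Hspb2, -0.088 to 0.10 for Hspb7, -0.018 to 0.69 for Bag3 and -0.38 to 0.26 for Cryab. Between tissues, median of ratios gave 0.14 for Hspb8 in vehicle and 0.012 for Hspb2 in D+Q mice, and libraries left out gave -0.18 to 0.33 for Bag3 in D+Q mice. Without the 3 TA libraries, an alternative chosen after seeing the data, Hspb1 had 0.037 and Hspb8 0.0017 in D+Q mice, and the differences of effects were 0.48 for Hspb1, -0.031 for Hspb2, 0.050 for Hspb8 and 0.18 for Bag3. For these differences, sex read from expression gave 0.0049 for Hspb1, and libraries left out gave -0.53 to 0.36 for Hspb1, -0.12 to 0.18 for Hspb2, -0.41 to 0.015 for Hspb8 and -0.41 to 0.10 for Bag3.

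The correlation of Hspb7 deviations over hearts and over TA libraries was -0.10 and 0.45 with Hspb1, -0.65 and -0.28 with Hspb2, -0.069 and 0.52 with Hspb3, 0.92 and 0.57 with Hspb6, 0.23 and 0.24 with Hspb8, -0.21 and 0.61 with Cryab, and 0.55 and 0.53 with Bag3. The causes were not tested. Depth is unknown, and 3 or 4 mice per group limit what could be called.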
